A study of Mus musculus with 7 samples.

Results

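The genes described here act in the late shaping of the sperm cell. They are 10 genes chosen by name from the testis table, *Spem1*, *Hook1*, *Rimbp3*, *Cep131*, *Spata6*, *Oaz3*, *Sun5*, *Pmfbp1*, *Ift88* and *Clip1*, and all 10 were found among its 19719 genes. RNA of total testis was sequenced from C57BL/6 males at 8 weeks of age, in 3 libraries of fl/Y males (labelled WT) and 4 libraries of cKO/Y Sox2-Cre males (labelled Rlim-KO), called cKO/Y from here on. The fl/Y males carry a floxed *Rlim* allele on their X chromosome and served as littermate controls. In cKO/Y males the Sox2-Cre transgene deletes that allele in the early embryo, so that the somatic cells of the testis and the germ cells lack it alike, and the Cre transgene itself is a further difference between the groups. *Rlim* encodes a ubiquitin ligase that also regulates transcription. The labels give 2 batches without saying what a batch was. Batch 2 held replicates 1 and 2 of each genotype, while batch 1 held fl/Y replicate 3 and cKO/Y replicates 3 and 4. The study calls the libraries biological replicates, and the labels do not say which animal each came from. The p-values measure the spread between these libraries.

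During spermiogenesis the round spermatid elongates, and a skirt of microtubules called the manchette forms around its nucleus and carries proteins toward the growing tail. The tail is fastened to the nucleus by the head-tail coupling apparatus, which is built at the centrosome and the nuclear envelope. At the end, most of the cytoplasm is removed as a residual body, and what is left is kept as a cytoplasmic droplet on the tail. Mutations in genes of each of these steps are known to give sperm with bent or detached heads, short tails or retained cytoplasm.

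The upstream sequences of 3 of these genes are shown because each printed stretch held a short part of a motif known from spermatid or cilia genes. The motifs searched on both strands were TGACGTCA (the full site of CREB and CREM) and its partial site TGACG, and GTTGCCATG and GTTNCC, which are parts of the X-box read by RFX factors. The RefSeq promoter table (GRCm38.p6, 250 bases before to 50 after each start) held 8 promoters for 7 of the 10 genes. *Rimbp3*, *Oaz3* and *Pmfbp1* had no entry. Each stretch below is the 150 bases just upstream of the outermost annotated start, written 5′ to 3′ on the strand of the gene, with motif matches in capitals. In the *Spem1* stretch (chr11:69822181-69822330, minus strand) the match is GTTNCC read from the other strand. In the *Cep131* stretch (chr11:120086828-120086977, minus strand) it is TGACG. In the *Spata6* stretch (chr4:111719834-111719983, plus strand) it is GTTNCC followed by TGACG read from the other strand.
Spem1: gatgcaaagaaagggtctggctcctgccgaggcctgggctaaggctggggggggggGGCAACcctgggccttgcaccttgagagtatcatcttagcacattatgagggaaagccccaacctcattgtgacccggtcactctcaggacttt
Cep131: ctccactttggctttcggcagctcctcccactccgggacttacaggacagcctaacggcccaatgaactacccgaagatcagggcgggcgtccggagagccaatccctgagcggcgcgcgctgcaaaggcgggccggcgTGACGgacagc
Spata6: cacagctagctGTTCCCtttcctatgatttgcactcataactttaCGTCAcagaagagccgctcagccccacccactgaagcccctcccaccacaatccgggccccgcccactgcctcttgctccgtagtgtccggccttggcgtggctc

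In the full windows, TGACG was found for *Cep131*, *Clip1* and *Spata6*, and it is present in 20.8% of the 32851 promoters in the table. GTTNCC was found for *Clip1*, *Ift88*, *Spata6*, *Spem1* and *Sun5*, against 45.3% of all promoters. The longer motifs TGACGTCA and GTTGCCATG, found in 1.79% and 0.773% of all promoters, were in none of the 8 windows. A match describes letters only, and no binding was measured.

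Each value is in CPM, the deposited unit of scaled read counts. Library depth was 2822168 to 8633399 reads over listed genes. For a gene with 0 reads, counting error alone leaves room for a level of up to 3 reads, or 0.301 to 0.945 CPM. The most abundant gene took 5.06% to 8.08% of reads in batch 1 and 16.8% to 19.3% in batch 2. It was *mt-Rnr2* in every library except cKO/Y replicate 1, where it was CT010467.1 at 19.3%. *Rlim*, the deleted gene (chromosome X, 103957163 to 103981284 of GRCm38), was at 99.5, 70.7 and 61.5 CPM in fl/Y and at 32.6, 35.7, 21.7 and 20.7 CPM in cKO/Y testes, with every cKO/Y library below every fl/Y library. The log2 fold change was -1.38 (standard error 0.16, adjusted p = 0.0087 from limma). Over 21 alternatives of the processing the log2 fold change lay between -1.52 and -1.28, with an unadjusted p under 0.05 in all 21, while the adjusted p ranged from 5.4e-10 to 0.921. Defining markers of spermatids were abundant in every library, and the 7 elongating spermatid markers summed to 8770 to 10977 CPM in fl/Y and 8153 to 12536 CPM in cKO/Y testes. As batch 2 minus batch 1 on the log2 scale, *Prm2* (-1.12), *Tnp2* (-0.89) and *Prm1* (-0.50) were lower and *Smcp* (0.44) was higher. Each was at an unadjusted p under 0.05 from limma, as were 24.8% of all tested genes. For the batch, 2 of the 7 were at an adjusted p under 0.05, as were 7.06% of all tested genes. Of 5 epididymis markers 4 were not listed, and the other, *Defb21*, was at no more than 2.52 CPM. Among Sertoli and Leydig cell markers, *Rhox5* (log2 fold change -0.55, unadjusted p = 0.039) and *Star* (-0.33, unadjusted p = 0.049) were at an unadjusted p under 0.05 in limma, as were 2.58% of all tested genes. Both had overlapping genotypes and an adjusted p of 0.99993. Of the 6 Sertoli cell markers 3 were below 0 and 3 above 0, with a median log2 fold change of 0.05. Of the 5 Leydig cell markers 1 was below 0 and 4 above 0, with a median of 0.07.

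The question was whether RNA of the 10 genes differed between fl/Y and cKO/Y testes. None of them passed the test, and each had overlapping genotypes, as the plot of CPM by library shows. Their log2 fold changes lay between -0.17 for *Oaz3* and 0.11 for *Cep131*, 8 below 0 and 2 above 0, where 51.2% of all 19400 tested genes were below 0. By limma 0 of 10 reached an adjusted p under 0.05 (0.00515% of all tested genes did, which is *Rlim* alone), and 0 of 10 reached an unadjusted p under 0.05 (2.58% of all tested genes). On the recovered reads 0 of the 10 genes passed an adjusted or an unadjusted p under 0.05 by any of 3 count tests. Of all tested genes, 0.0515% and 2.97% passed these by the likelihood ratio test of edgeR, 0.00515% and 2.21% by its quasi-likelihood test, and 0.00515% and 0.938% by DESeq2. None of the 10 had genotypes that did not overlap, against 1.59% of genes lower and 1.34% higher in cKO/Y without overlap. Their median log2 fold change was -0.06, beside -0.0055 over all tested genes, and was -0.06 within batch 1 and -0.08 within batch 2. In total testis, fewer cells of a type and less RNA per cell cannot be told apart.

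**Figure D1:**
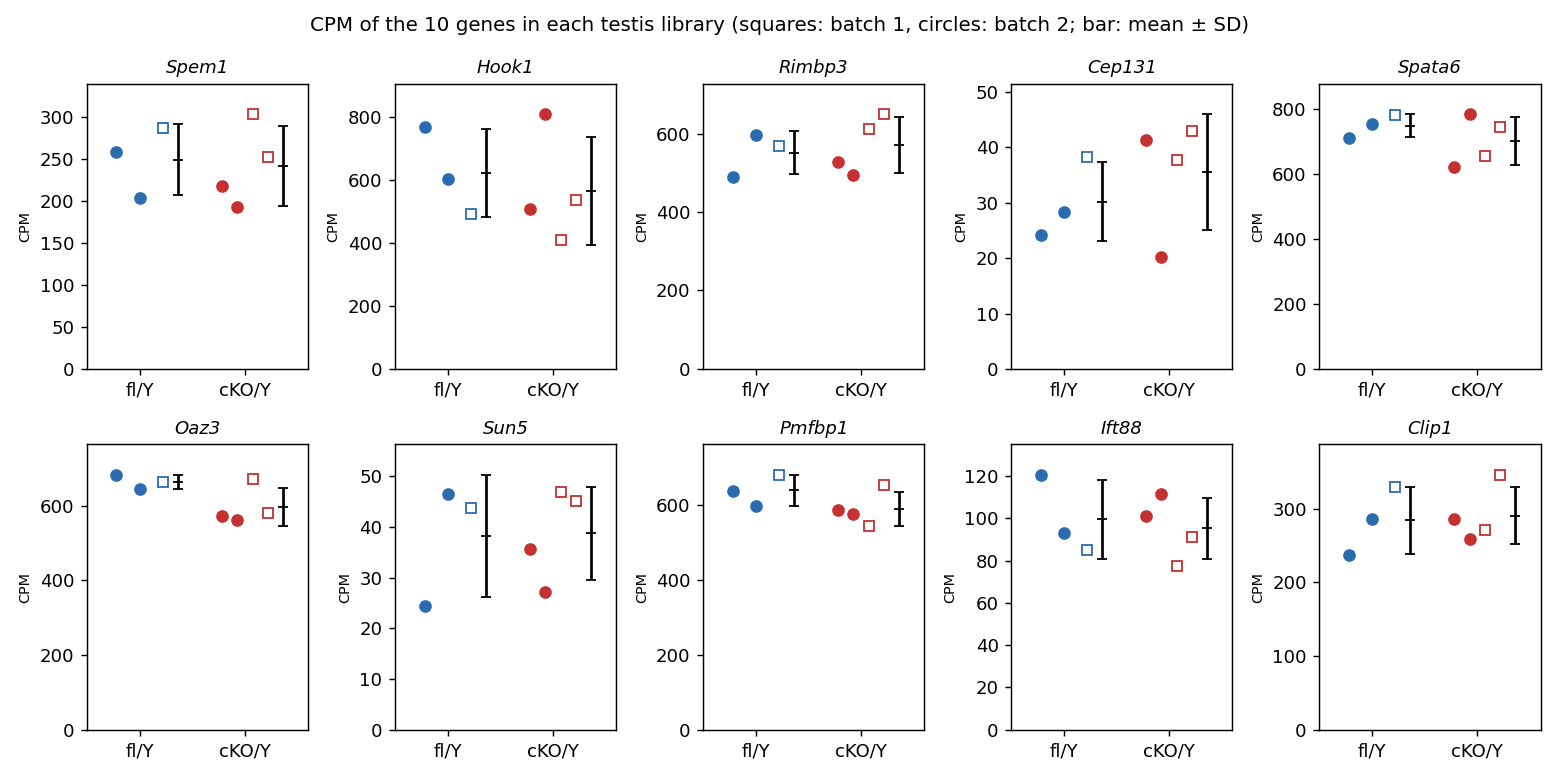
CPM of each of the 10 genes in the 3 fl/Y (blue) and 4 cKO/Y (red) testis libraries, with open squares for batch 1, filled circles for batch 2 and a black bar for the mean ± SD. The genotypes overlap in all 10 panels, and *Hook1* is highest in fl/Y replicate 1 and cKO/Y replicate 2 (770 and 810 CPM).

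Among genes of the manchette, *Hook1* encodes a linker that attaches cargo and membranes to microtubules, and its loss is known to misplace the manchette. The gene lies on chromosome 4 from 95967240 to 96025413 on the plus strand. Its level was 770, 605 and 492.5 CPM in fl/Y and 509, 810, 409 and 537 CPM in cKO/Y testes. The highest and the lowest library were both cKO/Y, and the groups overlapped. The log2 fold change was -0.08 (standard error 0.18, 95% interval -0.47 to 0.30). A non-coding gene on the other strand, 9530080O11Rik, shares 317 of its exonic bases.

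*Rimbp3* encodes a manchette protein that is known to bind HOOK1. Its position is chromosome 16 from 17208135 to 17213921 on the plus strand, as the table gives it. Its level was 490.0, 595 and 569 CPM in fl/Y and 528, 494, 612 and 649.6 CPM in cKO/Y testes. The lowest library was fl/Y replicate 1, with cKO/Y replicate 2 next to it. Its log2 fold change was 0.01 (standard error 0.14, 95% interval -0.30 to 0.32), and it was 0.15 within batch 1 and -0.08 within batch 2.

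*Cep131* encodes a protein of centriolar satellites that is also found at the manchette. It lies on chromosome 11 from 120064430 to 120086827 on the minus strand. It had the fewest reads of the 10 genes, 101 to 427 per library. Its level was 24.2, 28.3 and 38.2 CPM in fl/Y and 41.3, 20.1, 37.8 and 42.9 CPM in cKO/Y testes. The lowest library was cKO/Y replicate 2, while the other cKO/Y libraries were near or above the highest fl/Y library. Its log2 fold change was 0.11 (standard error 0.21, 95% interval -0.34 to 0.57), the widest interval of the 10.

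*Clip1* encodes CLIP-170, which tracks the growing ends of microtubules. Its position is chromosome 5 from 123577795 to 123684618 on the minus strand. Its level was 237, 286 and 329 CPM in fl/Y and 286, 259, 271 and 346 CPM in cKO/Y testes. *Ift88* encodes a subunit of the intraflagellar transport complex B, which carries material along the axoneme and the manchette, and lies on chromosome 14 from 57424062 to 57517936 on the plus strand. Its level was 120.5, 92.9 and 84.9 CPM in fl/Y and 101, 111, 77.5 and 91.0 CPM in cKO/Y testes. Both genes had their genotypes interleaved. Each had a log2 fold change of less than 0.01 in size, with a 95% interval of -0.32 to 0.31.

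Among genes of the head-tail coupling apparatus, *Spata6* is required for the connecting piece of the tail. It lies on chromosome 4 from 111719984 to 111829184 on the plus strand and was the most abundant of the 10 by CPM, at rank 70 of the 19719 genes in fl/Y. Its level was 713, 754 and 783 CPM in fl/Y and 624, 785, 656 and 745 CPM in cKO/Y testes. The lowest and the highest library were cKO/Y. The log2 fold change was -0.11 (standard error 0.15, 95% interval -0.42 to 0.21).

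*Sun5* encodes a nuclear envelope protein that anchors the tail to the head. The gene is on chromosome 2 from 153856188 to 153871084 on the minus strand. Its level was 24.4, 46.4 and 43.8 CPM in fl/Y and 35.7, 27.1, 46.9 and 45.2 CPM in cKO/Y testes. Both genotypes spanned nearly the same range. Its log2 fold change was -0.04 (standard error 0.21, 95% interval -0.48 to 0.40).

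*Pmfbp1* encodes a protein that is known to sit between SUN5 and SPATA6 in the coupling apparatus. It lies on chromosome 8 from 109494027 to 109542640 on the plus strand. Its level was 639, 599.5 and 681 CPM in fl/Y and 588, 576, 546 and 655 CPM in cKO/Y testes. Of the cKO/Y libraries 3 were below every fl/Y library, and replicate 4 was within the fl/Y range. Its log2 fold change was -0.13 (standard error 0.14, 95% interval -0.43 to 0.17).

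Among genes of the last steps, *Spem1* encodes a spermatid protein that is required for the removal of cytoplasm from the neck of the sperm. It lies on chromosome 11 from 69820876 to 69822180 on the minus strand. Its level was 258, 203 and 286 CPM in fl/Y and 217, 193, 303 and 252 CPM in cKO/Y testes. The lowest and the highest library were both cKO/Y. The log2 fold change was -0.12 (standard error 0.15, 95% interval -0.43 to 0.20), so the interval reaches from 25.6% lower to 14.5% higher.

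*Oaz3* encodes the antizyme of haploid germ cells, whose loss is known to leave the head and the tail poorly joined. The gene is on chromosome 3 from 94432414 to 94443915 on the minus strand. Its level was 682, 643 and 662 CPM in fl/Y and 572, 562, 671 and 579 CPM in cKO/Y testes. Of the cKO/Y libraries 3 were below every fl/Y library, and replicate 3 was within the fl/Y range. The log2 fold change was -0.17 (standard error 0.14, 95% interval -0.47 to 0.13), with the smallest unadjusted p of the 10 genes, 0.249 from limma. *Tdrkh* on the other strand covers 52.1% of the exonic bases of *Oaz3*, and whether the counting used strand is not given in the sources used here. *Tdrkh* itself was at 33.8 ± 7.87 CPM (SD, n = 3) for fl/Y males and at 28.7 ± 9.31 CPM (SD, n = 4) for cKO/Y males.

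**Figure D2:**
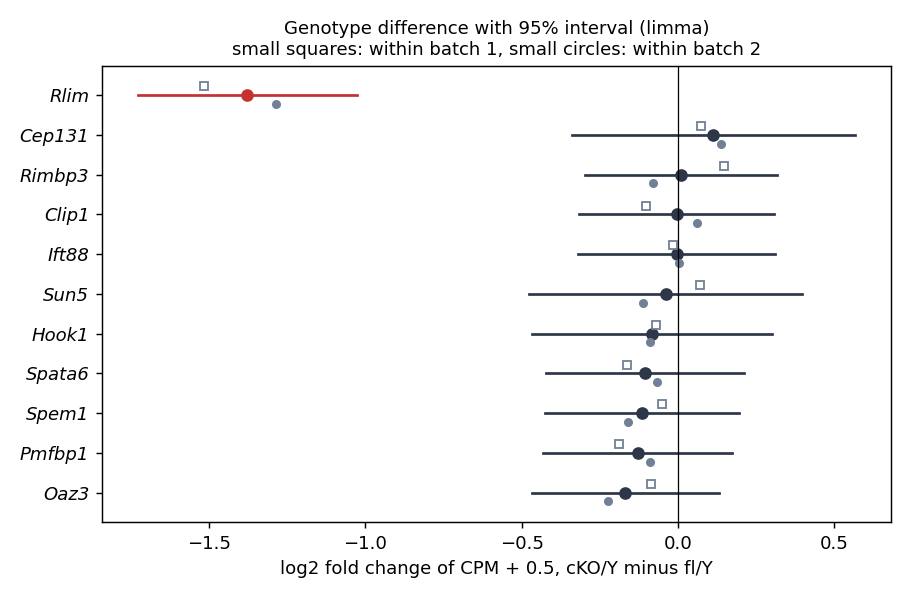
Log2 fold change of CPM + 0.5, cKO/Y minus fl/Y, for the 10 genes and *Rlim*, with the 95% interval from limma as a line and the values within batch 1 (open squares) and batch 2 (filled small circles). The intervals of the 10 genes all include 0, and that of *Rlim* (-1.73 to -1.03) does not.

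The 95% interval reached 0.31 to either side of the log2 fold change at the median of the 10 genes, beside 0.52 at the median of all tested genes. The genotype effect was also compared between the batches by an interaction term, and 0 of the 10 genes reached an unadjusted p under 0.05 from limma (2.08% of all tested genes did). The smallest of these p was 0.494, from a fit in which batch 1 has a single fl/Y library.

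The 10 genes differed widely in level. Per kb of exon, *Spem1* was highest in fl/Y testes at 239 ± 40.7 CPM per kb (SD, n = 3), and *Cep131* was lowest at 7.88 ± 1.88 CPM per kb (SD, n = 3). The order between them was *Pmfbp1*, *Oaz3*, *Spata6*, *Rimbp3*, *Hook1*, *Sun5*, *Clip1* and *Ift88*. The ranges of the fl/Y libraries overlapped for the neighbours *Rimbp3* and *Hook1*, *Sun5* and *Clip1*, and *Clip1* and *Ift88*, and for no other neighbours. The order depended on the length used. Divided by the length of the principal transcript alone, *Oaz3* was highest at 905 ± 26.3 CPM per kb (SD, n = 3), followed by *Spata6* at 304 ± 14.3 CPM per kb (SD, n = 3) and *Spem1* at 239 CPM per kb.

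**Figure D3:**
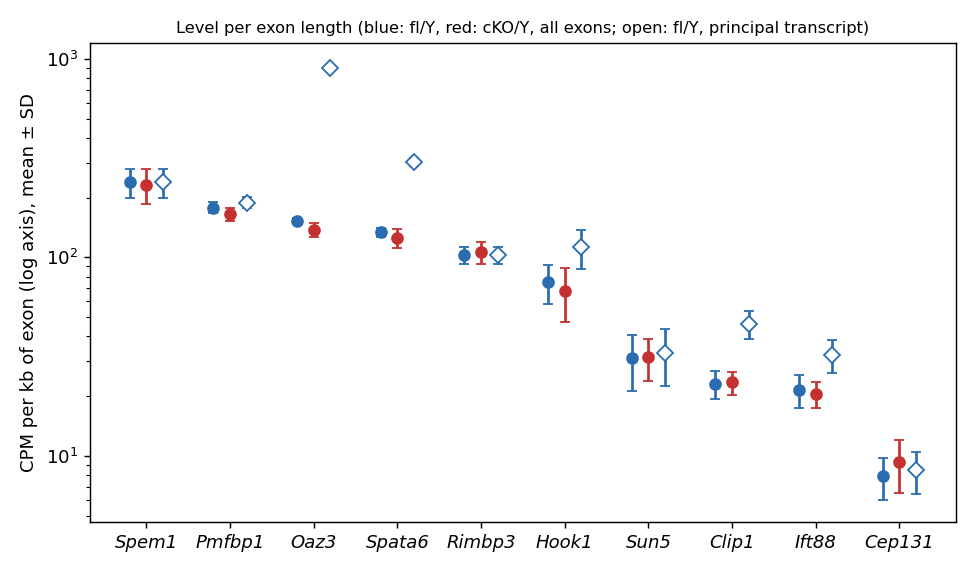
CPM per kb of exon on a log axis for the 10 genes, as mean ± SD, with fl/Y in blue and cKO/Y in red over all exons and fl/Y over the principal transcript as open diamonds. *Oaz3* moves from 153 to 905 CPM per kb with the shorter length, and *Spem1* stays at 239 CPM per kb.

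More of these genes reached an unadjusted p under 0.05 for the batch than for the genotype. On the log2 scale and as batch 2 minus batch 1, *Hook1* differed by 0.46 (unadjusted p = 0.022 from limma) and *Ift88* by 0.33 (unadjusted p = 0.042 from limma), while *Spem1* (-0.39), *Sun5* (-0.48) and *Cep131* (-0.50) went the other way with unadjusted p of 0.018, 0.032 and 0.033 from limma. This is 5 of 10 genes, where 24.8% of all tested genes reached an unadjusted p under 0.05 for the batch. None of the 5 passed the adjusted threshold, which 7.06% of all tested genes passed. Only *Ift88* had batches that did not overlap, as did 23.6% of all tested genes.

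With the batch left in, fl/Y replicate 1 and cKO/Y replicate 2, both of batch 2, deviated from their genotype means in the same way. Over all tested genes r was 0.47, and genes are not independent. In batch 1, r was 0.39 for fl/Y replicate 3 with cKO/Y replicate 3 and 0.36 with cKO/Y replicate 4. *Hook1* and *Ift88* were higher in both fl/Y replicate 1 and cKO/Y replicate 2 than in the other 5 libraries. *Rimbp3*, *Cep131*, *Sun5* and *Clip1* were lower in both. These are 6 of 10 genes, where 30.5% of all tested genes had both libraries above or both below the other 5. *Spem1*, *Spata6*, *Oaz3* and *Pmfbp1* did not separate them.

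This shift was also compared with base composition. Spearman's rho between the GC content of the longest transcript and the log2 level in the 2 libraries minus the other 5 was -0.75 over 9373 genes with a mean of 10 CPM or more, as a description, since all genes share the same 7 libraries. *Hook1* and *Ift88* have 41.1% and 41.2% GC and shifted by 0.64 and 0.38 on the log2 scale. *Cep131* has 61.4% GC and shifted by -0.74. *Sun5* shifted by -0.74 as well at 52.1% GC, closer to the median of 48.4%, and *Oaz3* at 42.1% GC shifted by only -0.01. Of 5 spermatocyte markers 3 were also highest in the same libraries (*Sycp1*, *Sycp3* and *Hormad1*), as were 15.4% of all tested genes. *Sycp1* was at 472 and 497 CPM in them and at 391 and 435 CPM in the rest of batch 2. In batch 1 it was at 233, 93.5 and 214 CPM. As batch 2 minus batch 1, these 3 markers differed by 1.38, 0.90 and 0.90 (unadjusted p = 3.8e-05, 0.0026 and 0.0013 from limma). The remaining spermatocyte markers, *Spo11* and *Piwil1*, were not highest in both libraries. Their batch differences were -0.08 and 0.17 (unadjusted p = 0.63 and 0.29 from limma). The 5 spermatocyte markers summed to 681 to 1061 CPM in fl/Y and 471 to 1130 CPM in cKO/Y testes, and none was at 0. Of 6 Sertoli cell markers 4 were lowest in the same 2 libraries (*Clu*, *Wt1*, *Gata4* and *Amh*), as were 15.1% of all tested genes. *Clu* was at 242 and 256 CPM in them, while *Sox9* and *Rhox5* were not lowest. The 6 summed to 305 to 561 CPM in fl/Y and 316 to 600.2 CPM in cKO/Y testes. The part of base composition or of cell makeup in the levels of the 10 genes was not tested. Without both libraries 0 of the 10 genes passed the adjusted threshold, and their median log2 fold change was -0.09 with 6 below 0 and 4 above 0.

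**Figure D4:**
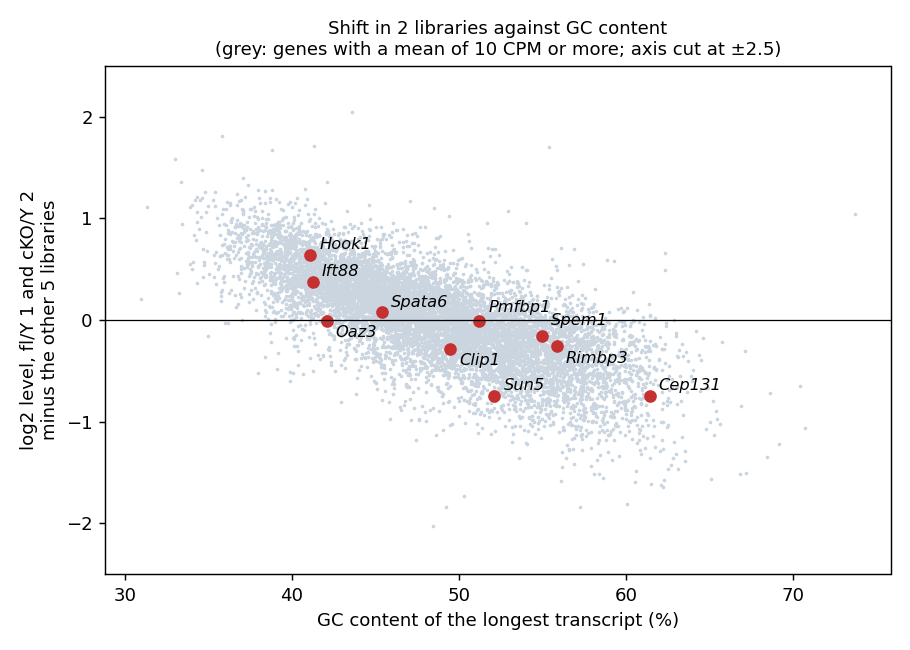
Log2 level in fl/Y replicate 1 and cKO/Y replicate 2 minus the mean of the other 5 libraries, against the GC content of the longest transcript in percent, for 9373 genes (grey) and the 10 genes (red). The cloud falls from left to right, with *Hook1* at 0.64 and *Cep131* at -0.74.

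The 10 genes did not vary in parallel. Over the 7 libraries the correlation of log2 levels was 0.92 for *Rimbp3* and *Sun5* and 0.90 for *Hook1* and *Ift88*, and it was -0.92 for *Sun5* and *Ift88* and -0.88 for *Hook1* and *Cep131*. Of the 45 pairs 26 were above 0 and 19 below 0, with a median of 0.10. All pairs rest on the same 7 libraries, which differ in batch and depth, and these values are given as a description. Each gene of the named pairs was also among those that separated fl/Y replicate 1 and cKO/Y replicate 2 from the rest. The part of that shift in the correlations was not tested. Among 9377 genes with a mean of 10 CPM or more, the gene most like *Hook1* was *Lekr1* (r = 0.997 over 7 libraries), and that most like *Ift88* was *Rasa1* (0.993). *Slc25a28* was nearest to *Rimbp3* (0.992), *Ccdc33* to *Sun5* (0.989), *N4bp3* to *Clip1* (0.981) and *Usp48* to *Spem1* (0.973). The least close were *Prss40* to *Spata6* (0.962), *Cnot8* to *Oaz3* (0.955) and 4933440N22Rik to *Pmfbp1* (0.946). Each of these is the highest of 9377 correlations over 7 libraries, so its r is high in part by selection and was not tested. The number of genes with a correlation above 0.95 ran from 0 for *Pmfbp1* and 1 for *Oaz3* to 105 for *Ift88* and 386 for *Hook1*.

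Other genes of the same steps were counted in the same fit, and none of them passed the adjusted threshold. Of 20 genes of manchette structure and tethering 19 were tested, 9 below 0 and 10 above 0, with a median log2 fold change of 0.01 and 0 at an unadjusted p under 0.05. The smallest p were those of *Sun3*, a manchette-linked nuclear envelope protein (log2 fold change -0.18), *Ube2b*, a ubiquitin-conjugating enzyme (-0.15), and *Map7*, a microtubule-binding protein (-0.11). The 23 genes of intraflagellar transport had 12 below 0 and 11 above 0, with a median of -0.0013, led by the complex B subunits *Ift27* (0.25), *Ift52* (0.14) and *Ift74* (-0.15).

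The 12 further genes of the head-tail coupling apparatus had 8 below 0 and 4 above 0, with a median of -0.05. The centrosomal genes *Cntln* (-0.21) and *Cntrob* (0.17) and *Tsga10* (-0.13) had the smallest p. The 15 genes of cytoplasm removal and the droplet had 8 below 0 and 7 above 0, with a median of -0.01. In that list *Alox15*, a lipoxygenase linked to organelle breakdown, was near the detection limit at 0.828 ± 0.643 CPM (SD, n = 3) for fl/Y males and at 1.37 ± 0.699 CPM (SD, n = 4) for cKO/Y males. *Ranbp17* (-0.18) and *Ubqln1* (0.11) followed.

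Of 12 paralogs of the 10 genes, 6 were below 0 and 6 above 0, with a median of 0.0065, and 2 were at an unadjusted p under 0.05, against 2.58% of all tested genes. *Hook2*, a paralog of *Hook1*, was at 37.8 ± 4.53 CPM (SD, n = 3) for fl/Y males and at 49.2 ± 2.27 CPM (SD, n = 4) for cKO/Y males, without overlap. Its log2 fold change was 0.36 (standard error 0.15, unadjusted p = 0.030 and adjusted p = 0.99993 from limma). *Clip2*, a paralog of *Clip1*, was at 3.28 ± 0.916 CPM (SD, n = 3) for fl/Y males and at 5.91 ± 1.77 CPM (SD, n = 4) for cKO/Y males, also without overlap, as were 1.34% of all tested genes in this direction. Its log2 fold change was 0.69 (standard error 0.29, unadjusted p = 0.029 and adjusted p = 0.99993 from limma). Both failed the correction over all genes. *Spem2*, a relative of *Spem1* that is listed under an older name, was at 182 ± 46.4 CPM (SD, n = 3) for fl/Y males and at 164 ± 60.8 CPM (SD, n = 4) for cKO/Y males, with a log2 fold change of -0.33 (unadjusted p = 0.070 from limma).

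**Figure D5:**
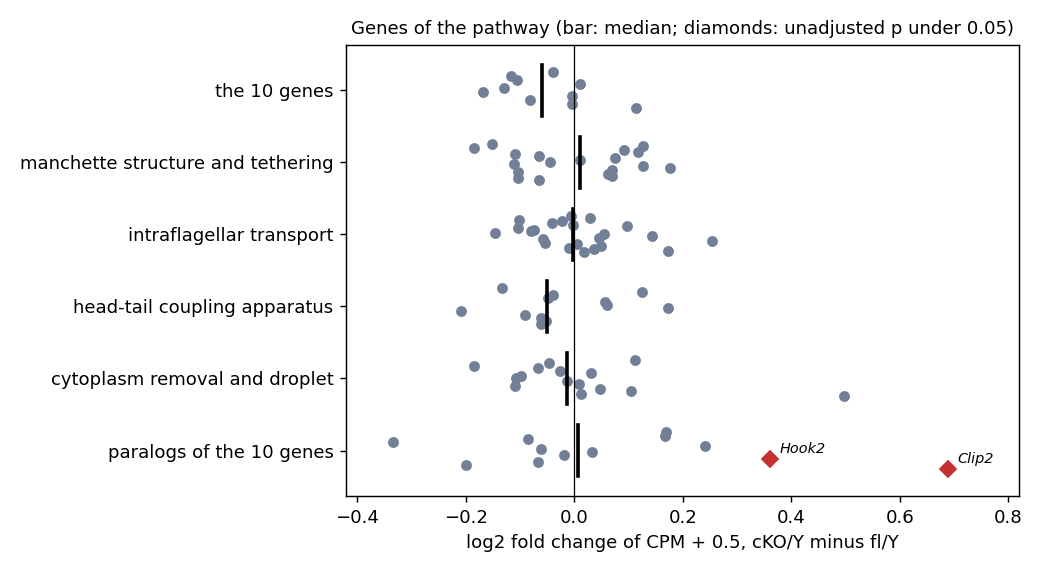
Log2 fold change of CPM + 0.5, cKO/Y minus fl/Y, for each tested gene of the 10 genes and of 5 lists, with a black bar at each median and red diamonds for an unadjusted p under 0.05. The medians lie between -0.06 and 0.01, and only *Hook2* (0.36) and *Clip2* (0.69) are marked.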

How the data were processed

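Total testis RNA of 3 fl/Y and 4 cKO/Y libraries was used as deposited. The signal values are CPM made by the authors, each library scaled by a factor equal to its TMM factor. The submitters' processing notes name HISAT2 2.1.0, featureCounts, edgeR and GRCm38, while the methods of the study name TopHat and HTSeq with edgeR, so the aligner and counter cannot be settled here. In each library 100% of values were whole reads to within 0.001 of a read, and these reads were recovered for count tests. The 19400 genes that exceeded 1 CPM in 3 or more of the 7 libraries were compared on log2(CPM + 0.5), a scale that understates changes of low genes, with limma 3.58.1 (R 4.3.3), a variance trend and the batch as covariate. P-values were two-sided and Benjamini-Hochberg adjusted. The fit was checked on simulated libraries with known fold changes. Those set apart from 0 were larger than the changes of the 10 genes, so the check does not cover changes as small as theirs. The shift shared by fl/Y replicate 1 and cKO/Y replicate 2 was not simulated. Alternatives were other pseudocounts, filters, scaling, variance and batch models, single batches, libraries left out, a replicate block, and edgeR 4.0.16 and DESeq2 1.42.0. Lengths, overlaps and GC content came from GENCODE M21 with Python 3.11.15. The members and lists were chosen with earlier results of these data known. Genes named are the 10 genes, *Rlim*, the 3 smallest p of each pathway list, its genes at an unadjusted p under 0.05 and the nearest gene of each, except that of *Cep131*, which is not reported here. *Tdrkh* and the markers were named after their values were seen.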

Additional observations from a re-analysis of the deposited data

Results flagged for a closer look

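*Oaz3* was at 671 CPM in cKO/Y replicate 3, far from the other 3 cKO/Y libraries at 562 to 579 CPM, by Dixon's test at the 95% level within the group. Chance gives about 1 such case in 20 groups, and 11 genes were looked at in the cKO/Y group. Without this library the log2 fold change of *Oaz3* was -0.21, beside -0.17 with it, and its unadjusted p was 0.189 from limma.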

How the results depend on the processing

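None of the 10 genes passed the adjusted threshold under any of the 21 alternatives. The count of genes passing over all genes, 1 in limma, was 0 without a variance trend, without the batch term, in batch 2 alone and with the replicate block, 28 in batch 1 alone and 10 by the edgeR likelihood ratio test. It was 0 to 3 when 1 library was left out, with 0 without fl/Y replicate 1 or 3, 3 without cKO/Y replicate 2 and 2 without cKO/Y replicate 3. The replicate numbers were not taken as pairs. Deviations from the genotype means, with the batch left in, correlated at 0.101, 0.066 and 0.392 between same-numbered libraries. Of the fl/Y libraries, replicate 1 was closest to cKO/Y replicate 2, while replicates 2 and 3 were closest to the cKO/Y library of the same number. Log2 fold changes near 0 changed sign without the batch term (*Sun5* 0.042, *Clip1* 0.036), in batch 1 alone (*Sun5* 0.072, *Ift52* -0.0077, *Ubqln1* -0.078), in batch 2 alone (*Rimbp3* -0.080, *Ift88* 0.0036, *Clip1* 0.062, *Ift74* 0.016), with the replicate block (*Rimbp3* -0.018), by DESeq2 (*Clip1* 0.0024) and without the 2 libraries that deviated together, a choice made after seeing the data (*Spem1* 0.013, *Ift88* 0.044, *Ubqln1* -0.037). With 1 library left out the ranges were -0.25 to 0.088 for *Hook1*, -0.080 to 0.10 for *Rimbp3*, -0.15 to 0.36 for *Cep131*, -0.25 to 0.21 for *Sun5*, -0.099 to 0.088 for *Ift88*, -0.088 to 0.065 for *Clip1*, -0.38 to 0.035 for *Sun3*, -0.019 to 0.25 for *Ift52*, -0.31 to 0.016 for *Ift74* and -0.00045 to 0.24 for *Ubqln1*. Uncalled values that kept their sign also moved, to -0.019 without fl/Y replicate 1 and -0.19 without fl/Y replicate 2 for *Spem1*, and to -0.033 without cKO/Y replicate 1 and -0.20 without cKO/Y replicate 2 for *Spata6*. The ranges were -0.17 to -0.078 for *Pmfbp1*, -0.50 to -0.16 for *Spem2*, -0.36 to -0.039 for *Cntln*, -0.36 to -0.0019 for *Ranbp17*, 0.067 to 0.42 for *Ift27* and 0.43 to 0.93 for *Clip2*. The cause was not tested. The median of the 10 genes stayed below 0 under all 21 alternatives. *Rlim* stayed between -1.52 and -1.28 but lost its call without a variance trend (adjusted p = 0.815 from limma), without the batch term (0.921), in batch 2 alone or without fl/Y replicate 3, without fl/Y replicate 1 and with the replicate block. *Hook2* and *Clip2* kept their direction, with an unadjusted p under 0.05 in 12 of 21 and 12 of 20 alternatives.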
